A study of Arabidopsis thaliana with 8 samples.

Results

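Brassinosteroids are growth-promoting steroid hormones, and the transcripts described here are those of 10 genes that carry their signal from the cell surface to the nucleus. They were taken by locus from gene tables of 26987 entries: the receptor BRI1 (AT4G39400) and its relatives BRL1 (AT1G55610) and BRL3 (AT3G13380), the co-receptor BAK1 (AT4G33430), the receptor inhibitor BKI1 (AT5G42750), the cytoplasmic kinases BSK1 (AT4G35230) and BIN2 (AT4G18710), the transcription factors BZR1 (AT1G75080) and BES1 (AT1G19350), and the growth repressor IBH1 (AT2G43060). All 10 were found as single-locus entries, and all 10 were above 0 in every library.

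RNA was sequenced from whole Arabidopsis seedlings of the Col-0 accession in 8 libraries, 1 library per condition. The wild type Col-0, the BRI1 null mutant bri1-116 and the line DAYi were each grown for 5 days in the dark or for 9 days in long-day light. DAYi carries a dexamethasone-inducible RNAi hairpin against DAY, a chaperone-like gene, and it was grown on medium with ethanol (EtOH) or with 1 µM dexamethasone (DEX). Col-0 and bri1-116 are labelled as mock-treated with EtOH. Dark and light seedlings therefore also differed in age, and light and age cannot be told apart. In DAYi the EtOH titles contain a 3 and the DEX titles a 25 that the labels leave unexplained, and if these are plant lines, then line and treatment cannot be told apart. Title and genotype field conflict for the dark Col-0 and bri1-116 libraries, which are grouped here by title. Light-grown bri1-116 has the unexplained word "new" in its title. In whole seedlings, fewer cells of a type and less RNA per cell cannot be told apart.

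In outline, brassinosteroid binds BRI1 outside the cell, BKI1 leaves the receptor, and BRI1 and BAK1 phosphorylate each other. BSK kinases and the phosphatase BSU1 then pass the signal on by turning off BIN2, a GSK3-like kinase that otherwise phosphorylates BZR1 and BES1 and keeps them inactive. Much of this chain runs through phosphorylation of proteins, which transcript levels do not show. BZR1 and BES1 bind DNA at the brassinosteroid response element (BRRE) and at E-boxes, of which the G-box is 1 form.

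BZR1 and BES1 encode close relatives with overlapping roles, but their transcripts followed different courses across the libraries, so the 250 bases before their annotated starts are shown side by side. They were read from the TAIR10.1 assembly with RefSeq gene starts, on the plus strand, at chr1:28185254-28185503 for BZR1 and at chr1:6688213-6688462 for BES1. Capitals mark the G-box (CACGTG) and the BRRE (CGTGTG or CGTGCG), searched on both strands.
BZR1: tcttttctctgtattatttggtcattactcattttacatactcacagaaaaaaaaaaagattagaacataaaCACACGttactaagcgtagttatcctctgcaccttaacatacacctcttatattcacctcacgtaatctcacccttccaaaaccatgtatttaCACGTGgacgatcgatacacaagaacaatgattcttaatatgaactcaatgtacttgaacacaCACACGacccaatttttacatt
BES1: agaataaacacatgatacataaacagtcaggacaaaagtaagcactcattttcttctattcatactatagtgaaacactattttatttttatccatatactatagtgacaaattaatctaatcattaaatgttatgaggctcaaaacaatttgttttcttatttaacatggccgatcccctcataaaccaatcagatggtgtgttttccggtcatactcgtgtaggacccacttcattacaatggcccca
The BZR1 stretch held 1 G-box, from base 85 to base 80 before the start, and 2 copies of the BRRE in reverse, beginning 178 and 22 bases before it. The BES1 stretch held neither motif, and it held 2 E-boxes of the looser form CANNTG, which also takes in every G-box. BAK1 had 1 BRRE, 99 bases before its start. BRI1, BRL1, BRL3, BKI1, BSK1, BIN2 and IBH1 had neither G-box nor BRRE in this window. Over the 27443 such windows of protein-coding genes, 6.49% held a G-box, 6.71% a BRRE and 55.3% an E-box. These are matches of letters in 1 window, and binding was not measured.

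DAY itself (AT3G51140) was measured at 73.5 FPKM in Col-0, 41.8 FPKM in bri1-116, 56.9 FPKM in DAYi with EtOH and 6.88 FPKM in DAYi with DEX in the light. FPKM is the number of sequenced fragments scaled to transcript length and to library size. In the dark DAY was at 13.8 FPKM in Col-0, 32.8 FPKM in bri1-116, 13.4 FPKM in the DAYi library labelled EtOH and 34.8 FPKM in the one labelled DEX. The light pair followed the labels, but the dark pair ran against them. DAY also differed between dark Col-0 and bri1-116, which do not carry the hairpin, so a DAY level alone does not settle the DEX labels. Every dark DAYi direction below is therefore between libraries as labelled. A null allele need not remove the transcript, so BRI1 in bri1-116 does not check the genotype labels.

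With 1 library per condition no test was possible, and a gene was called only where its FPKM differed more than 2-fold, the fold that the study's methods use. Neighbours in any order of levels therefore cannot be separated by a replicate error. The nearest view of library-to-library spread is DAYi with EtOH against Col-0, which come from different tables and are not replicates. In the dark this pair is taken as titled and labelled, and the labels of both of its libraries are in doubt as said above. Between them, 0 of the 10 chain genes passed 2-fold in the dark, where 4.41% of all entries did, and 0 of 10 in the light, where 4.14% did. The widest member difference was 1.16-fold in the dark, for IBH1, and 1.34-fold in the light, for BRL3. In the light these control libraries gave the same order of levels, from BES1 and BIN2 down through BRI1, BSK1, IBH1, BAK1, BZR1, BKI1 and BRL3 to BRL1. The summed FPKM ranged from 803228 to 1249520, and the single entry AT2G01021 took between 1.51 and 28.6% of it. Median-ratio scaling factors stayed between 0.973 and 1.03, so levels are given as deposited. As an alternative, the summed FPKM without AT2G01021 was made equal across the libraries, which is called equal-sum scaling below. AT2G01021 is left out of these sums, so the shifts reflect the summed FPKM of all other entries. In the light libraries AT2G01021 took only 1.51 to 4.39% of the full sum.

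**Figure D1:**
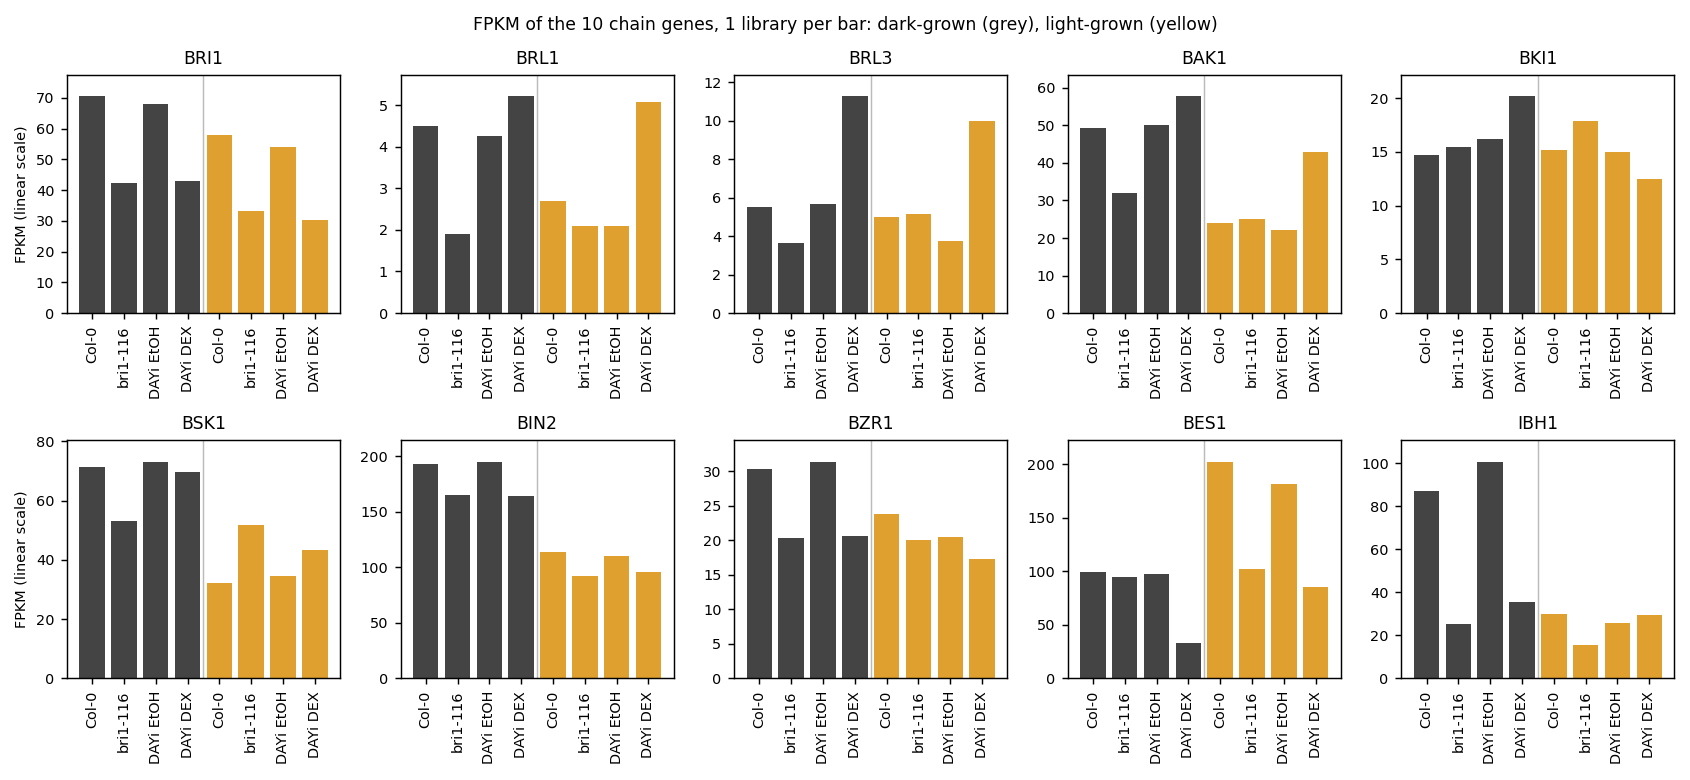
FPKM (linear axis from 0, a separate scale for each gene) of the 10 genes in the 8 libraries, 1 bar per library, dark-grown in grey and light-grown in yellow, named as labelled. BRI1 is lower in bri1-116 and in DAYi labelled DEX than in their controls in both light conditions, BES1 is lowest in dark DAYi labelled DEX at 33.3 FPKM, and IBH1 stands highest in the 2 dark control libraries.

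The chain was read from the cell surface inward. BRI1 lies on chromosome 4 from 18324661 to 18328826 and has a single exon. It was at 70.6 FPKM in Col-0, 42.5 FPKM in bri1-116, 68.0 FPKM in DAYi labelled EtOH and 43.0 FPKM in DAYi labelled DEX in the dark. In the light the same libraries gave 58.1, 33.3, 54.1 and 30.2 FPKM. Within each light condition both control libraries lay above both others, and no difference reached 2-fold. BRI1 was 1.58-fold lower in DAYi labelled DEX in the dark and 1.79-fold lower with DEX in the light, beside 1.66-fold and 1.75-fold lower in bri1-116. The 4 log2 ratios lay between -0.84 and -0.66.

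BRL1 and BRL3 encode receptors of the same family that also bind brassinosteroid and are best known from vascular tissue. BRL1 (chromosome 1 from 20779874 to 20784017) was at 4.51 FPKM in Col-0, 1.89 FPKM in bri1-116, 4.27 FPKM in DAYi labelled EtOH and 5.22 FPKM in DAYi labelled DEX in the dark. Light-grown, it was at 2.69, 2.09, 2.10 and 5.07 FPKM in the same order. BRL1 was thus lowest in dark bri1-116, 2.38-fold below Col-0, and it was highest in the 2 DEX libraries. With DEX in the light it was 2.42-fold higher than with EtOH, and in the dark 1.22-fold higher. A pseudocount of 1 FPKM brought both calls under 2-fold, to a log2 ratio of 0.97 with DEX in the light and of -0.93 in dark bri1-116.

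BRL3 (chromosome 3 from 4346557 to 4350923) was at 5.51, 3.63, 5.65 and 11.3 FPKM in dark Col-0, bri1-116, DAYi labelled EtOH and DAYi labelled DEX. Its light values were 4.99, 5.12, 3.73 and 10.001 FPKM. The 2 DEX libraries were again the highest of the 8. BRL3 was 2.68-fold higher with DEX in the light, while the dark log2 ratio of 0.9965 fell just short of 2-fold and passed it at 1.0021 after median-ratio scaling. In bri1-116 it was 1.52-fold lower in the dark and 1.03-fold higher in the light. The neighbour AT3G13390, which shares 4 bases with BRL3 in the RefSeq annotation, was at most at 0.0374 FPKM.

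BRI1 was lower and both relatives were higher in the libraries labelled DEX, so the make-up of the receptor transcripts differed. This can be seen within a library, where scaling does not enter. BRL1 and BRL3 together made up 12.4, 11.5 and 12.7% of the summed FPKM of the 3 receptors in dark Col-0, bri1-116 and DAYi labelled EtOH, and 27.7% in the library labelled DEX. In the light they made up 11.7% in Col-0, 17.8% in bri1-116, 9.73% with EtOH and 33.3% with DEX. The 2 DEX libraries stood above the other 6. BRI1 was still the most abundant receptor transcript in each of the 8 libraries, at 3.02 to 14.5 times the FPKM of BRL3.

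BAK1, a SERK-family receptor kinase that also serves immune receptors (chromosome 4 from 16086311 to 16090777), was at 49.2, 31.9, 50.2 and 57.8 FPKM in dark Col-0, bri1-116, DAYi labelled EtOH and DAYi labelled DEX. In the light it was at 23.9, 25.0, 22.1 and 43.0 FPKM. The 3 light libraries without DEX lay close together and the DEX library stood apart, 1.95-fold above EtOH and so just under the threshold. In dark bri1-116 BAK1 was 1.54-fold lower. BRI1 transcript exceeded BAK1 transcript in 6 libraries, by 1.33 to 2.45 times, and only in the 2 DEX libraries was it below, at 0.744 times in the dark and 0.702 times in the light. AT4G33420, the next gene on the other strand, was at 98.9 FPKM in the dark library labelled EtOH against 197 FPKM in the one labelled DEX, and at 33.4 against 120.3 FPKM in the light. The gene spans in the deposited tables do not overlap, but in the RefSeq annotation the 2 genes share 78 exonic bases. The libraries are stranded, the strand setting of the counting is not given in the sources used here, and the part of shared reads in the BAK1 values was not tested.

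BKI1 (chromosome 5 from 17142820 to 17144160), which binds the kinase domain of BRI1 and holds the receptor inactive, was the steadiest of the 10 genes. Its dark values were 14.7, 15.4, 16.2 and 20.2 FPKM in Col-0, bri1-116, DAYi labelled EtOH and DAYi labelled DEX, and its light values were 15.2, 17.9, 15.0 and 12.5 FPKM. The highest was 1.61 times the lowest. DAYi labelled DEX gave the highest value in the dark and the lowest in the light.

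BSK1, a membrane-anchored kinase that BRI1 phosphorylates (chromosome 4 from 16755112 to 16758091), was at 71.3, 53.2, 73.2 and 69.7 FPKM in dark Col-0, bri1-116, DAYi labelled EtOH and DAYi labelled DEX. Light-grown seedlings had 32.3, 51.6, 34.6 and 43.5 FPKM. In bri1-116 it was thus 1.34-fold lower than Col-0 in the dark and 1.60-fold higher in the light, both short of the threshold. BIN2, the kinase that this branch turns off (chromosome 4 from 10296273 to 10301228), had dark values of 193, 165, 195 and 164 FPKM in the same order. In the light BIN2 was at 114, 91.7, 110.4 and 95.5 FPKM. It was the most abundant of the 10 transcripts in all 4 dark libraries, and it lay between 1.16-fold and 1.24-fold lower than the control in each of the 4 comparisons. Those small differences turned to higher in both light comparisons under equal-sum scaling. The tables give BIN2 and its same-strand neighbour AT4G18720 a common span, but that neighbour was at most at 0.0893 FPKM.

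BZR1 (chromosome 1, starting at 28185504) was at 30.3, 20.3, 31.4 and 20.6 FPKM in dark Col-0, bri1-116, DAYi labelled EtOH and DAYi labelled DEX. Its light values were 23.9, 20.1, 20.6 and 17.3 FPKM. Both dark controls lay above the other 6 libraries, and BZR1 was 1.49-fold lower in dark bri1-116 and 1.53-fold lower in DAYi labelled DEX. In the light it was 1.19-fold lower in both comparisons, and slightly higher in both, at log2 ratios of 0.07 and 0.15, under equal-sum scaling. The tables give BZR1 a common span with AT1G75090 on the other strand, with which it shares 282 exonic bases in the RefSeq annotation, and that gene was between 1.57 and 4.42 FPKM.

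BES1 (chromosome 1 from 6688522 to 6690414) varied far more than BZR1, with a highest value 6.08 times the lowest against 1.82 times. In the dark it was at 99.5 FPKM in Col-0, 94.5 FPKM in bri1-116, 97.7 FPKM in DAYi labelled EtOH and 33.3 FPKM in DAYi labelled DEX. In the light it was at 202 FPKM in Col-0, 102 FPKM in bri1-116, 181 FPKM with EtOH and 85.6 FPKM with DEX. In the dark, 3 libraries lay together and the one labelled DEX was 2.93-fold lower than EtOH. In the light both control libraries were the highest of the 8, with DEX 2.12-fold lower than EtOH and bri1-116 1.99-fold lower than Col-0, just short of the threshold. The light DEX call was lost, at a log2 ratio of -0.76, under equal-sum scaling, a step that raises every gene in this comparison by 0.32.

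In the tables the span of BES1 does not reach AT1G19360 on the other strand, whereas in the RefSeq annotation they share 818 exonic bases. That neighbour was at 40.7 FPKM in the dark library labelled EtOH and 51.5 FPKM in the one labelled DEX, and at 32.8 and 50.1 FPKM in the light, opposite in direction to BES1. BES1 and BZR1 transcripts had 22 stretches of 50 bases in common, or 0.859% of those in BES1 and 1.17% of those in BZR1, and reads from these could fall to either gene.

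Within a library, BES1 was at 3.28, 4.66, 3.11 and 1.61 times the FPKM of BZR1 in dark Col-0, bri1-116, DAYi labelled EtOH and DAYi labelled DEX. The light ratios were 8.49, 5.07, 8.81 and 4.95. The ratio was lowest in the dark library labelled DEX, and in the light it was lower in bri1-116 and with DEX than in both controls. BIN2 transcript in turn was at 1.75 to 1.9998 times BES1 in the 3 other dark libraries and at 4.92 times in the one labelled DEX. Light libraries had it below BES1 in Col-0, bri1-116 and DAYi with EtOH, at 0.563, 0.901 and 0.609 times, and above it with DEX, at 1.12 times.

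**Figure D2:**
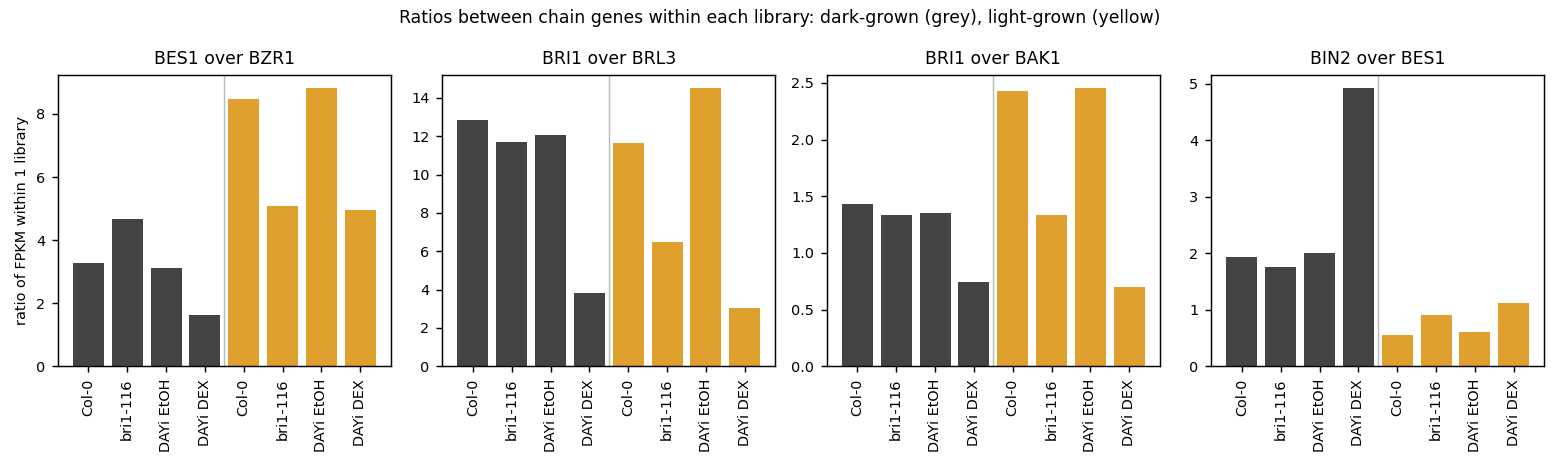
Ratio of the FPKM of a pair of chain genes within 1 library (linear axes from 0), for BES1 over BZR1, BRI1 over BRL3, BRI1 over BAK1 and BIN2 over BES1, 1 bar per library, dark-grown in grey and light-grown in yellow. BRI1 falls below BAK1 only in the 2 libraries labelled DEX, at 0.744 and 0.702, and the same libraries have the lowest BRI1 over BRL3, at 3.82 and 3.02.

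IBH1 encodes a helix-loop-helix protein that represses cell elongation, and in textbook accounts BZR1 represses it. Its dark values were 87.04 FPKM in Col-0, 25.1 FPKM in bri1-116, 101 FPKM in DAYi labelled EtOH and 35.4 FPKM in DAYi labelled DEX. Its light values were 29.9, 15.4, 25.8 and 29.4 FPKM in the same order. IBH1 was high only in the 2 dark controls, and all other libraries lay at or below 35.4 FPKM. In the dark it was 3.47-fold lower in bri1-116 and 2.85-fold lower in DAYi labelled DEX. In the light bri1-116 was 1.93-fold lower, short of the threshold, while DEX was 1.14-fold higher than EtOH. IBH1 is a single-exon gene on chromosome 2 (from 17909185 to 17910082) that overlaps no annotated neighbour.

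The 4 comparisons were then read over the whole chain. In the dark library labelled DEX against EtOH, 2 of the 10 genes were more than 2-fold lower (BES1 and IBH1), where 12.2% of all entries were, and 0 of 10 were more than 2-fold higher, where 9.36% were. With DEX in the light, 1 of 10 was lower (BES1), where 16.3% were, and 2 of 10 were higher (BRL1 and BRL3), where 12.1% were. In dark bri1-116 against Col-0, 2 of 10 were lower (BRL1 and IBH1), where 9.01% were, and 0 of 10 were higher, where 11.2% were. In light bri1-116, 0 of 10 were lower, where 7.82% were, and 0 of 10 were higher, where 6.52% were. Each count lay within 2 genes of what the background share would give among 10 genes.

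The median log2 ratio of the 10 genes was -0.16 in the dark library labelled DEX and -0.01 with DEX in the light, beside -0.003 and 0.03 over all entries. In bri1-116 it was -0.59 for dark and -0.28 for light seedlings, beside -0.02 and -0.04 over all entries. Equal-sum scaling raises every entry by 0.32 with DEX in the light and by 0.40 in light bri1-116. It moved the medians of these light comparisons to 0.31 and 0.12, so that the light bri1-116 median turned. In dark bri1-116, 9 of the 10 genes had a ratio below 1, with BKI1 as the exception. The split was 6 below and 4 above in the dark library labelled DEX and in light bri1-116, and 5 and 5 with DEX in the light. Read with the dark genotypes exchanged, as the genotype fields have it, each dark bri1-116 ratio turns, including those of BRL1 and IBH1, and the median becomes 0.59. As titled, BRI1 was 1.66-fold lower in the dark bri1-116 library and 1.75-fold lower in the light one, whose title and genotype field do not conflict. A BRI1 level does not check the genotype labels, and which dark reading is right was not tested.

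**Figure D3:**
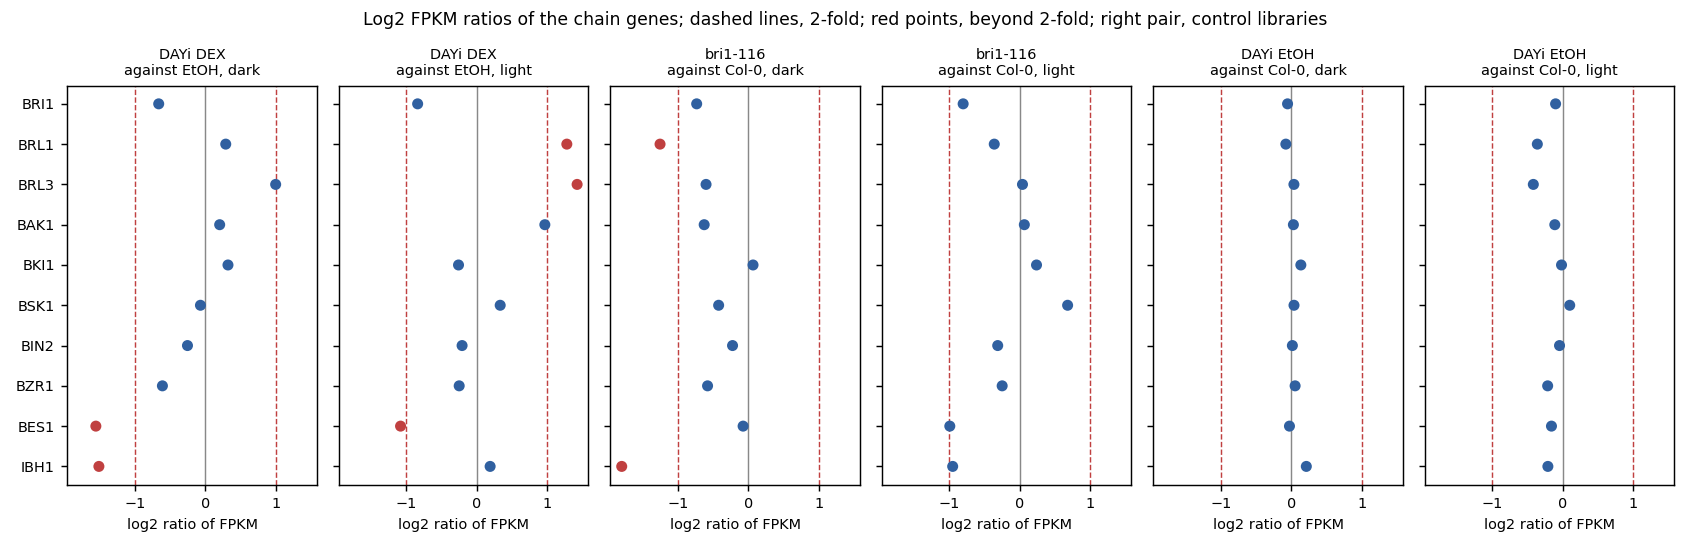
Log2 ratio of FPKM of the 10 genes in the 4 comparisons and, in the right pair of panels, between the control libraries DAYi with EtOH and Col-0, as titled and labelled. Dashed lines mark 2-fold and red points lie beyond it: BES1 and IBH1 in the first panel, BES1, BRL1 and BRL3 in the second, BRL1 and IBH1 in the third, and none in the other panels, where the control pairs stay within 1.16-fold in the dark and 1.34-fold in the light.

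Between dark and light, the counts of chain genes were at or below the shares over all entries. These ratios cross tables that may have been scaled separately, and light and age change together. The Col-0 and bri1-116 counts also take the dark libraries as titled. They would change with the dark genotypes exchanged, and they were not remade under that reading. IBH1, for example, was at 15.4 FPKM in light bri1-116. It was at 25.1 FPKM in the dark library titled bri1-116 and at 87.04 FPKM in the one titled Col-0. In Col-0, 4 of the 10 genes differed more than 2-fold in either direction, where 42.0% of all entries did: BAK1 (2.06-fold), BSK1 (2.21-fold) and IBH1 (2.91-fold) were lower in the light and BES1 (2.04-fold) was higher. In DAYi with EtOH, 4 of 10 differed, where 41% of entries did, and all 4 were lower in the light: BRL1 (2.04-fold), BAK1 (2.28-fold), BSK1 (2.12-fold) and IBH1 (3.91-fold), while BES1 was 1.85-fold higher. In bri1-116, 0 of 10 differed, where 28.0% of entries did, and the widest difference was 1.804-fold, for BIN2. In DAYi labelled DEX, 1 of 10 differed, where 28.1% of entries did: BES1 was 2.57-fold higher in the light. As titled and labelled, BIN2 was lower in the light in every genotype and treatment, by 1.70 to 1.804-fold. On the same reading the log2 ratio of IBH1 ranged from -1.97 with EtOH to -0.27 in DAYi labelled DEX.

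The rest of the pathway was followed in a list of 53 related genes. Of these, 50 had an entry of their own, 3 of them (BSK11, SSP and CDG1) were listed at 0 in at least 1 library, and 47 were compared. In the dark library labelled DEX, 8 of 47 were more than 2-fold lower and 1 was higher, beside 12.2 and 9.36% of all entries. With DEX in the light the counts were 6 and 3, beside 16.3 and 12.1%. In dark bri1-116 they were 8 and 0, beside 9.01 and 11.2%, and in light bri1-116 they were 1 and 0, beside 7.82 and 6.52%. Between the dark control libraries 0 of 47 differed, and between the light ones only the barely expressed BSU1 did.

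Among receptor kinases, VH1/BRL2, a BRI1 relative of vascular tissue, was the only listed gene. It was at 17.9 FPKM in the dark library labelled EtOH and 8.33 FPKM in the one labelled DEX, 2.15-fold lower, and its other log2 ratios were -0.83, -0.69 and -0.36, so that it was lower in all 4 comparisons like BRI1. Of 9 co-receptor kinases and regulators, only BRS1 passed the threshold, beside 7.82 to 16.3% of all entries lower and 6.52 to 12.1% higher per comparison. BRS1, a secreted carboxypeptidase known for offsetting weak BRI1 alleles when overproduced, was at 33.6 FPKM with EtOH and 7.59 FPKM with DEX in the light and at 5.96 FPKM in Col-0 and 2.93 FPKM in bri1-116 in the dark. BIR3, a pseudokinase that binds BAK1 and BRI1 and had the highest mean level of this group, stayed between 21.5 and 46.5 FPKM, and its log2 ratios lay between -0.51 and 0.24.

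Of the 10 BSK and CDG kinases compared, 1 was more than 2-fold lower and 1 higher in the dark library labelled DEX (12.2 and 9.36% of all entries). The counts were 0 and 1 with DEX in the light (16.3 and 12.1%), 3 and 0 in dark bri1-116 (9.01 and 11.2%), and 0 and 0 in light bri1-116 (7.82 and 6.52%). BSK5 was the only one more than 2-fold lower in both dark comparisons. It was at 38.0 FPKM in the library labelled EtOH against 6.88 FPKM in the one labelled DEX, and at 31.5 FPKM in Col-0 against 14.0 FPKM in bri1-116, but in the light its 4 values lay between 7.16 and 10.8 FPKM. BSK3, the most abundant of these relatives, had log2 ratios between -0.19 and 0.41. BSU1, the phosphatase that gave the BSU1 family its name, was under 1 FPKM in all 8 libraries, so its ratios rest on very low values, and BSL2, the most abundant of the family, was between 16.5 and 28.7 FPKM.

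Of the 8 GSK3-like kinases compared, ATSK31 was alone in passing the threshold. Over all entries, 7.82 to 16.3% per comparison were lower and 6.52 to 12.1% higher, so few such genes would be looked for among 8. It was at 35.2 FPKM in Col-0, 7.13 FPKM in bri1-116, 44.4 FPKM in DAYi labelled EtOH and 14.3 FPKM in DAYi labelled DEX in the dark. In the light it was between 1.70 and 4.61 FPKM, with the highest value in DEX. The order of its dark libraries was that of IBH1 with bri1-116 lowest, and its relative ATSK12, the most abundant, stayed between 65.6 and 113.5 FPKM. Of the 8 BZR1 relatives and partners compared, 2 were more than 2-fold lower with DEX in the light (16.3% of all entries) and 1 in light bri1-116 (7.82%), with no other call. Among them MYBL2, a repressor that works with BES1, was at 140.3 FPKM with EtOH and 46.1 FPKM with DEX and at 123 FPKM in Col-0 and 51.9 FPKM in bri1-116 in the light, whereas its dark log2 ratios were 0.35 and 0.28. BEH2, the most abundant BZR1 relative, had log2 ratios between -0.12 and 0.39.

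A further group held 7 atypical helix-loop-helix genes related to IBH1. Like the other lists, it was written with earlier results of these data known, so its counts are not independent of them. Lower by more than 2-fold were 4 of 7 in the dark library labelled DEX (12.2% of all entries), 3 of 7 with DEX in the light (16.3%), 2 of 7 in dark bri1-116 (9.01%) and 0 of 7 in light bri1-116 (7.82%), and none was higher by more than 2-fold. PAR2, which restrains elongation in shade, was at 63.4 FPKM in the dark library labelled EtOH against 11.1 FPKM in the one labelled DEX, at 24.3 against 10.5 FPKM in the light, and at 40.2 FPKM in dark Col-0 against 9.73 FPKM in bri1-116. PAR1, its close relative, was at 66.4 against 21.3 FPKM in the dark and at 14.7 against 4.82 FPKM in the light in DAYi, but its log2 ratio was 0.17 in dark bri1-116. AIF1 was lower in DAYi with log2 ratios of -1.004 in the dark, just past 2-fold, and -1.69 in the light. AIF3, the most abundant of the group, was at 199 FPKM in the dark library labelled EtOH and 88.4 FPKM in the one labelled DEX, and its other log2 ratios lay between -0.39 and -0.16.

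**Figure D4:**
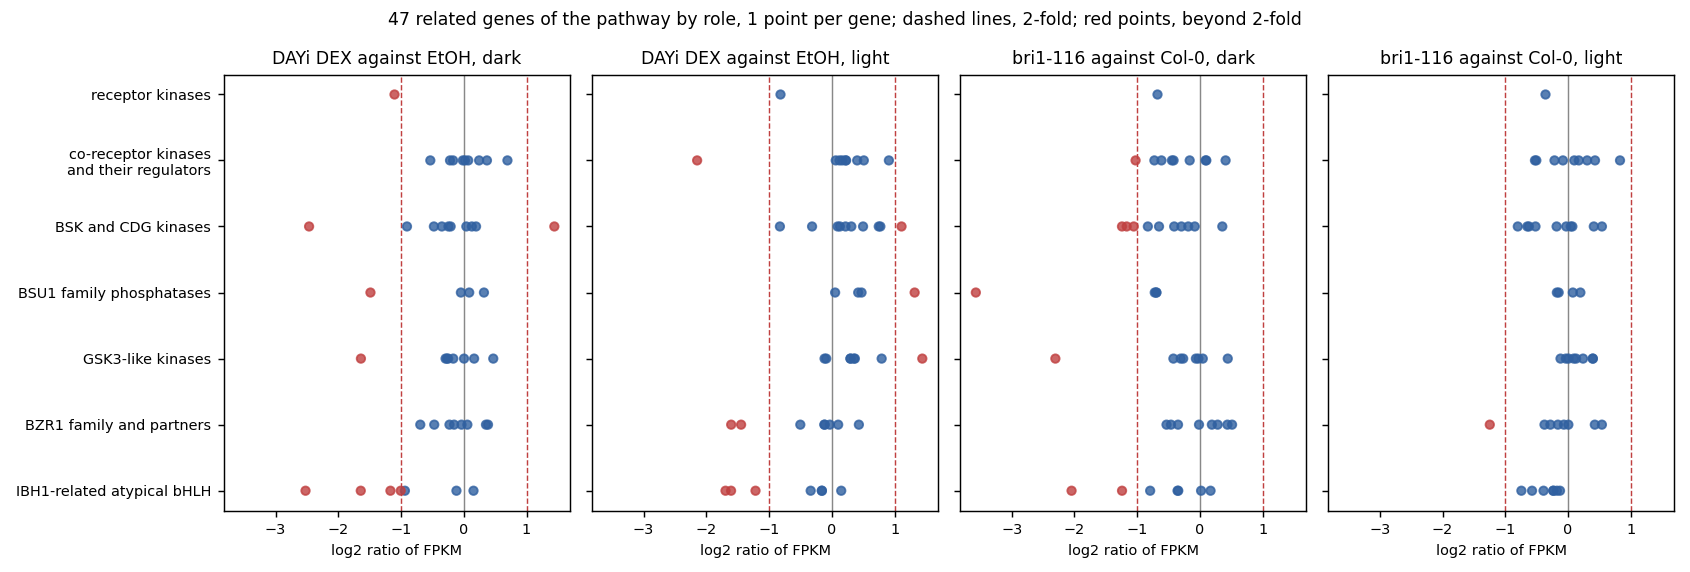
Log2 ratio of FPKM of the 47 related genes in the 4 comparisons, 1 point per gene, in rows by role. Dashed lines mark 2-fold and red points lie beyond it. In the bottom row, 4 and 3 of the 7 IBH1-related genes are beyond 2-fold in the DAYi panels, all lower, while light bri1-116 has 1 red point in all, MYBL2.

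The entries with the most similar course over the 8 libraries were found as the smallest root mean square difference of log2(FPKM + 1), each profile centred on its mean, among 16665 single-locus entries of at least 1 FPKM throughout. The points share libraries, and no test was made. For BRI1 they were AT5G57340 (0.118), a hypothetical protein, CSLC5 (0.125), a cellulose-synthase-like enzyme, and AT2G35760 (0.129), a CASP-like protein. CSLC5, for example, was at 31.0, 18.8, 31.8 and 20.7 FPKM in the dark and at 28.2, 19.5, 24.2 and 14.7 FPKM in the light, in the order of the BRI1 values above. BRI1 had 43 entries within 0.2, and its own centred profile had a root mean square of 0.416. That value was 0.727 for BES1 and 0.843 for IBH1, so counts within a fixed 0.2 cannot be compared between the 3 genes.

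For BES1 the nearest were RALFL34 (0.174), AT4G36470 (0.196), a predicted methyltransferase, and GATA7 (0.198). RALFL34, a secreted peptide, was at 89.4 FPKM in the dark library labelled EtOH and 24.1 FPKM in the one labelled DEX, and at 121 and 58.0 FPKM in the light. BES1 had 3 entries within 0.2. For IBH1 the nearest were KCS2 (0.223), an enzyme of very-long-chain fatty acid synthesis, AT2G38790 (0.237) and PRA8 (0.255), so that no entry came within 0.2. KCS2 was at 39.4 FPKM in dark Col-0, 13.7 FPKM in dark bri1-116, 51.0 FPKM in the dark library labelled EtOH and 16.0 FPKM in the one labelled DEX, and between 9.81 and 17.3 FPKM in the light.

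**Figure D5:**
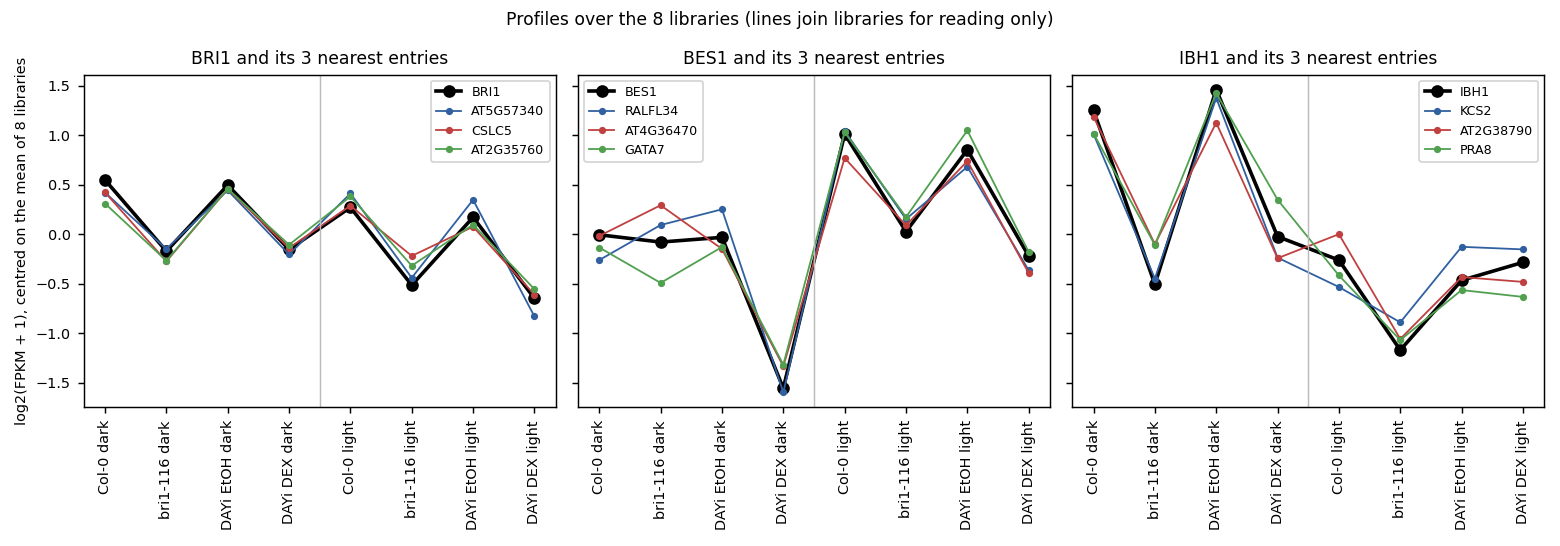
Centred log2(FPKM + 1) of BRI1, BES1 and IBH1 (black) and of the 3 entries nearest to each (colours) over the 8 libraries, with lines drawn only to guide the eye. The BRI1 group dips in bri1-116 and in DAYi labelled DEX in both light conditions, the BES1 group is lowest in the dark library labelled DEX, and the IBH1 group is high in the 2 dark control libraries.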

How the data were processed

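The study sequenced stranded mRNA libraries (NextSeq500). The submitters' processing notes name CASAVA 1.8.2, TopHat2 2.0.13 for alignment to the TAIR10 genome, and Cuffdiff 2.2.0, from which came the FPKM that the authors deposited for each gene and library. The tables also hold the authors' log2 fold changes, p-values, q-values and test status, which were not used. The 8 value columns were joined by entry over 4 tables, of which 26795 of 26987 entries name a single locus.

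Ratios were taken between deposited FPKM without a pseudocount, over entries above 0 in both libraries, and called past 2-fold. With 1 library per condition there is no replicate error and no test. Fragment counts could not be recovered: at 2602 single-exon genes, 46.1 to 62.7% of low values were whole within 0.15. For unrelated values 30.0% would be, were the FPKM of 1 fragment fixed in advance. It was fitted to the same values, so unrelated values could also pass 30.0%. The depth is therefore unknown, and no counting intervals are given.

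All 10 genes are named. Of 53 related genes, those past 2-fold in the same direction in at least 2 of 4 comparisons and the most abundant of each role are named, as are the 3 entries nearest to BRI1, BES1 and IBH1. The members and lists were chosen with earlier results of these data known. File starts plus 1 equalled RefSeq starts for 7477 entries, and 26296 of 26312 shared loci overlapped TAIR10.1, from which upstream sequences were read. Gene positions in the text are those of the tables. Alternatives were pseudocounts of 0.1 and 1, median-ratio scaling, equal-sum scaling without AT2G01021, 1.5-fold and 3-fold thresholds, filters at 1 and 5 FPKM, and exchanged dark genotypes. Python 3.11.15 with NumPy 2.4.6, pandas 2.3.3 and Matplotlib 3.10.9 was used.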

Additional observations from a re-analysis of the deposited data

Results flagged for a closer look

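These results had opposite directions in comparisons set side by side, with at least 1 of the pair past 2-fold. None of the differences was tested, since each condition has 1 library, and dark DAYi directions follow the labels, against which DAY itself ran. Dark bri1-116 directions follow the titles, with which the genotype fields conflict. With the dark genotypes exchanged, each pair below that holds a dark bri1-116 ratio would run in the same direction. Other opposite pairs were not looked for under that reading. IBH1 had a log2 ratio of -1.51 in the dark library labelled DEX and 0.19 with DEX in the light, a difference of -1.70. BRL1 was 1.54 higher on the log2 scale in the DAYi than in the bri1-116 comparison in the dark (0.29 and -1.25) and 1.64 higher in the light (1.28 and -0.36).

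Among related genes, ATSK31 had log2 ratios of -1.64 in the dark and 1.44 in the light for DEX, a difference of -3.08, and of -2.30 and 0.24 for bri1-116, a difference of -2.54. MYBL2 ran the other way, with dark minus light differences of 1.96 for DEX and 1.53 for bri1-116. BSU1, under 1 FPKM throughout, differed by -2.81 for DEX and by -3.77 for bri1-116. BSK5 differed by -1.21 between dark and light bri1-116. PAR1 was at -1.64 in the dark library labelled DEX and at 0.17 in dark bri1-116, a difference of -1.81.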

How the results depend on the processing

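With 1 library per condition the values have no replicate error, and their depth is unknown. No paired analysis was possible because no condition has a second library. All 40 log2 ratios kept their direction with either pseudocount and with median-ratio scaling. Making the summed FPKM without AT2G01021 equal shifted all entries by -0.02 (DEX, dark), 0.32 (DEX, light), -0.13 (bri1-116, dark) and 0.40 (bri1-116, light). It turned 7 small ratios (BIN2 and BZR1 in both light comparisons, BKI1 with DEX in the light and in dark bri1-116, BRL1 in light bri1-116), moved the members' median to 0.31 with DEX in the light, -0.72 in dark bri1-116 and 0.12 in light bri1-116, and brought BSK1 past 2-fold there, for a count of 1. It also brought BAK1 past 2-fold with DEX in the light, at 1.28, while BES1 fell short. With the dark genotypes exchanged, the median was 0.59, BRL1 1.25 and IBH1 1.795. At 1.5-fold the counts were 5, 5, 5 and 4, in the same order, and at 3-fold 0, 0, 1 and 0. The dark bri1-116 count was 1 with a pseudocount of 1 FPKM and 1 with a filter of 5 FPKM, both without BRL1.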
